A study of Oryza sativa Japonica Group with 8 samples.

Results

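The DMS profile of OsNRT1.1B mRNA was compared between roots and shoots of rice. Of the 8 libraries of the series, the 4 that read OsNRT1.1B were used, and they were joined by position at every adenine (A) and cytosine (C), which gave 140 of the 485 A and C positions measured over all transcripts. The plants were seedlings of the japonica cultivar Nip (Nipponbare), 2 weeks old and grown in hydroponic solution. The DMS-treated seedlings stood for 15 min in a buffer with 1% dimethyl sulfate, and the untreated ones in the same buffer with water added instead. Roots and shoots were then processed apart, giving DMS-treated root, untreated root, DMS-treated shoot and untreated shoot, with 1 library each. The temperature of this step is 30°C in the sample records and 28°C in the methods. No number of pooled seedlings was found in the sources used here, and since each library reads a single transcript, the tissue could not be checked against marker genes.

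OsNRT1.1B encodes a nitrate transporter of the plasma membrane that takes part in nitrate uptake, root-to-shoot nitrate transport and nitrate signalling in rice. In the study it served as the control transcript for the OsNRT2.3 isoforms, and it was the only transcript read in both tissues. DMS methylates A and C on the face that forms base pairs, and pairing or a bound protein at that face slows the reaction. The reverse transcriptase TGIRT-III reads through the methyl group and leaves a mismatch in the cDNA. The deposited value is the share of reads with a mismatch at a position. The DMS signal is the treated minus the untreated mismatch percentage at the same position, in percentage points, and a base is called reactive here when its signal was at least 0.5 percentage points. This is a rule of size with no test behind it, because there was 1 library per condition and the depth is not listed beside the fractions.

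The listed stretch was 357 nt long, from position 22 to 378 counted along the amplified product, with 82 A, 58 C, 70 G and 147 T (U in the RNA). Listed values at G and T were 0 in all 4 libraries and were not used. Position 287 was missing from the DMS-treated shoot library and position 25 from the untreated one, and both are G. No genome was used, so chromosome coordinates are not given and the stretch was not placed in an exon or an untranslated region. Read in the 3 forward frames, it held 7, 6 and 5 stop codons, and the longest run of codons without a stop was 54. It is rich in short repeated motifs, among them 16 uninterrupted copies of TTC from position 107 to 154.

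Short windows of the stretch are shown as examples of the patterns described below. These patterns are C before G, the TTC repeat, little signal (in the first part of its window) and a block reactive in shoot. Each window is written 5′ to 3′ as DNA, once for root and once for shoot, with the reactive bases in capitals.
38 to 65 in root: tgCaCgCgtcgtgtatgtaCgtCgtcct
38 to 65 in shoot: tgCAcgCgtcgtgtAtgtACgtCgtCCt
107 to 136 in root: ttCttcttcttcttcttcttcttCttcttc
107 to 136 in shoot: ttcttCttCttCttCttCttCttCttCttC
216 to 245 in root: attaattaattaaccaActacgtaataact
216 to 245 in shoot: attaattaattaaccAActacgtaAtAACt
284 to 308 in root: gtAgaaggAagatatataCgtaCgt
284 to 308 in shoot: gtagaaggaAgatAtataCgtaCgt
345 to 365 in root: gccaCaaAgtgtattactgAt
345 to 365 in shoot: gccACAAAgtgtAttACtgAt
In the first window 5 bases were reactive in root, of which 4 were C followed by G. The second window holds the start of the TTC repeat, reactive at 2 of 10 C bases in root and 9 of 10 in shoot. The third had 1 reactive base in root and 6 in shoot, none of them before position 231. In the last window 3 of 11 A and C bases were reactive in root and 9 of 11 in shoot.

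The DMS signal of root was carried by fewer bases than that of shoot. In root 25 of the 140 positions were reactive (17.9%), and in shoot 60 (42.9%). By the same rule the share was 67.3% of 165 positions for OsNRT2.3a in root and 2.78% of 180 positions for OsNRT2.3b in shoot. The 10 largest signals made up 59.0% of all rises in root and 32.9% in shoot, and the 20 largest 80.6% in root and 53.7% in shoot. Averaged over positions, root had 0.464 percentage points and shoot 0.718, a root minus shoot difference of -0.254. The median signal did not follow this order, at 0.0793 in root and 0.0723 in shoot. The median of the per-position differences was -0.0291, with 56 positions higher in root and 84 higher in shoot. The upper quartile was 0.256 in root and 1.22 in shoot, so the profiles parted among their higher values. No replicate error can be set against these differences, since each condition has a single library. A first gauge is the untreated pair, where the root and shoot libraries differed by at most 0.168 percentage points at any position (SD 0.0386 over the 140 positions). It holds no variation of the DMS treatment and rests on low values, with untreated medians of 0.0713% in root and 0.0589% in shoot. Counts past it are therefore a description and cannot stand in for replicates. The signal was higher in root by more than this largest untreated difference at 23 positions, and higher in shoot by more than it at 52. A second gauge is the largest fall with DMS, 0.332 percentage points at A209 in root, and 16 positions were higher in root and 51 higher in shoot by more than this.

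**Figure D1:**
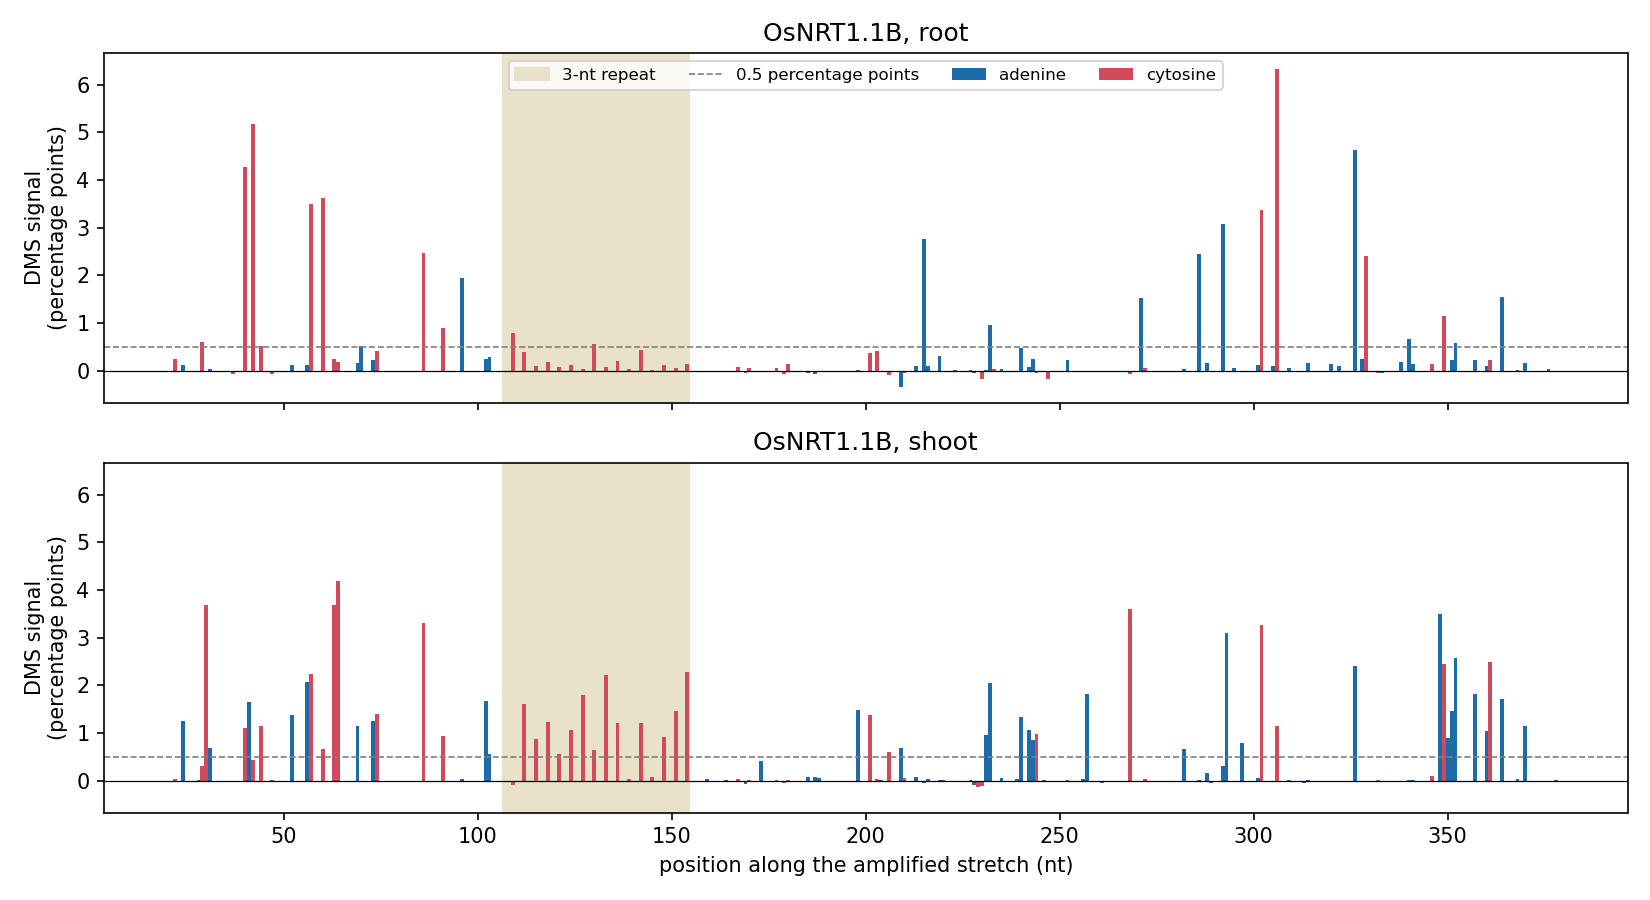
DMS signal (percentage points) at each A and C along the amplified stretch of OsNRT1.1B, in root (upper panel) and shoot (lower panel), 1 pair of libraries per tissue; the dashed line is the 0.5 limit and the shaded band the TTC repeat. Root shows few tall bars, up to 6.33 at position 306, while shoot shows more bars, up to 4.19 at position 64, and fills the repeat.

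Split by tissue, 14 positions were reactive in both (10.0%), 11 in root only (7.86%), 46 in shoot only (32.9%) and 69 in neither. Of the 82 A, 4 were reactive in both tissues, 7 in root only and 25 in shoot only. Of the 58 C, 10 were reactive in both, 4 in root only and 21 in shoot only. Cytosine therefore made up most of the bases reactive in both tissues. The positions nearest the limit of 0.5 were A240 (0.481) below it and C44 (0.516) above it in root, and C42 (0.439) below it and A103 (0.564) above it in shoot. The limit cut through a graded range in root, since 25 of the 46 positions called shoot only also had a treated root value at least 2 times the untreated one. By that 2-fold rule 49.3% of all positions were raised in root and 50.7% in shoot. Of these, 48 positions were raised in both tissues, 21 in root only and 23 in shoot only, so the excess of shoot-only positions rests on the size of the rise. The 11 root-only positions were at least doubled in shoot in 4 cases. Where the untreated value is low, a 2-fold change can be a small one, and 2-fold falls occurred too.

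**Figure D2:**
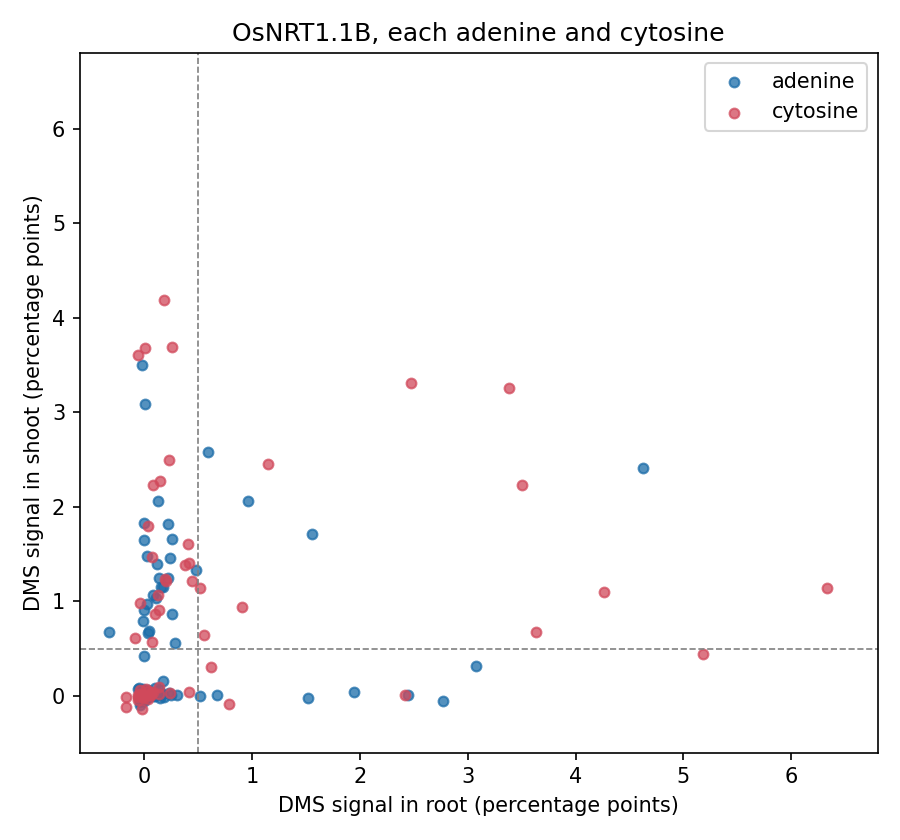
DMS signal in root (horizontal axis, percentage points) against shoot (vertical axis, percentage points), each point an A or C of OsNRT1.1B, 1 pair of libraries per tissue; dashed lines mark 0.5. Most reactive points lie close to one axis, with 14 points past both lines.

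Across the 140 positions, which belong to 1 transcript and share their libraries and base composition, Pearson's r between root and shoot signals was 0.193 and Spearman's rho 0.385. For the 82 A alone r was 0.155, and for the 58 C alone 0.170. The untreated profiles had an r of 0.992 and a rho of 0.825, and the r includes 3 positions above 1%. The likeness of root and shoot was lower for the DMS signal than for the untreated values by either measure.

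The 14 positions reactive in both tissues ran from C40 to A364, and 6 of them had the higher signal in root and 8 in shoot. C302, in the sequence TACGT, had a large signal of similar size in each tissue. It read 3.46% with DMS and 0.0791% untreated in root, against 3.46% with DMS and 0.194% untreated in shoot, so the signals were 3.38 and 3.26 percentage points. C86 also had a large signal in root (2.48) and in shoot (3.31). Other shared positions were far apart in size. C306, 4 nt downstream of C302 and in the same TACGT sequence, had the largest signal of root. It read 6.40% with DMS and 0.0712% untreated in root, against 1.18% with DMS and 0.0375% untreated in shoot. A326 had a signal of 4.63 percentage points in root against 2.41 in shoot. C40 (4.27 in root, 1.099 in shoot) and C60 (3.63 in root, 0.673 in shoot) were likewise higher in root. A352, on the other side, had 0.585 in root and 2.58 in shoot.

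The 11 positions reactive in root only were scattered singly from C29 to A340. C42 had the second largest signal of root and lay just below the limit in shoot. It read 5.29% with DMS and 0.107% untreated in root, against 0.494% with DMS and 0.0549% untreated in shoot. A292, A215, A286 and C329 followed, with root signals of 3.07, 2.77, 2.44 and 2.42 percentage points. At A215 the shoot library with DMS was no higher than the untreated one. It read 2.94% with DMS and 0.162% untreated in root, against 0.115% with DMS and 0.166% untreated in shoot. The median shoot signal over the 11 positions was 0.0136 percentage points. No run of 3 neighbouring A and C positions, with G and T skipped, was reactive in root only, and none was reactive in both tissues. With so few positions in each of these classes, the lack of runs says little about clustering.

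The 46 positions reactive in shoot only ran from A24 to A370, and 19 of them lay in 5 runs of 3 or more. The largest were C64, C63, C30, C268 and A348, with shoot signals of 4.19, 3.69, 3.68, 3.60 and 3.50 percentage points. In root the same bases had 0.182, 0.260, 0.00284, -0.0623 and -0.0215. All 5 led the shoot profile and were below the limit of 0.5 in root, though C63 and C64 read there more than 2 times their untreated values. C64 read 0.253% with DMS and 0.0713% untreated in root, against 4.23% with DMS and 0.0343% untreated in shoot. C30 read 0.0227% with DMS and 0.0198% untreated in root, against 3.71% with DMS and 0.0309% untreated in shoot. The median root signal over the 46 positions was 0.121 percentage points.

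The shoot-only runs were at positions 63 to 69, 112 to 127, 148 to 154, 240 to 244 and 357 to 361. The first had the largest mean signal, 0.206 percentage points in root and 3.01 in shoot over 3 positions. The second, inside the TTC repeat, held 6 C with means of 0.155 in root and 1.19 in shoot. The third, which closes the repeat, had means of 0.115 in root and 1.55 in shoot over 3 C. The run at 240 to 244 (ATAAC, with 4 positions) had 0.193 in root and 1.06 in shoot, and that at 357 to 361 had 0.187 in root and 1.78 in shoot over 3 positions. Positions below the limit in both tissues formed 8 runs with 44 of the 69 such positions. Large classes form runs by their share alone, here 32.9% of positions for shoot only and 49.3% for neither. Whether the runs exceed what these shares give was not tested. Below the limit need not mean without a rise, since with DMS 19 of the 69 were at least 2 times their untreated value in root and 9 in shoot. Falls of that size occurred too. A28 read 0.0272% with DMS and 0.0595% untreated in root, and A289 0.0146% with DMS and 0.0511% untreated in shoot. At such low values and unknown depth, the 2-fold counts do not show that these rises are real. The longest, from 159 to 188, held 12 A and C with mean signals of 0.00968 percentage points in root and 0.0551 in shoot. The run from 216 to 230, mostly TTAA repeats, held 9 with means of 0.0214 in root and -0.0305 in shoot.

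In the TTC repeat most C had the higher signal in shoot. Its 16 C lie in the same local sequence, apart from the last, and 2 were reactive in root and 13 in shoot. The signal was higher in shoot at 15 of the 16. In root it ran from 0.0193 to 0.789 percentage points with a median of 0.132, and in shoot from -0.0842 to 2.28 with a median of 1.14. The ranges overlap. The largest values in shoot were at C154 (0.140 in root, 2.28 in shoot) and C133 (0.0831 in root, 2.23 in shoot). The exception was C109, the first C of the repeat, with 0.789 in root and -0.0842 in shoot. Its untreated values, 0.471% in root and 0.430% in shoot, were above the repeat medians of 0.0633% in root and 0.0478% in shoot. C139 and C145 stayed low in both, with 0.0361 and 0.0193 in root and 0.0482 and 0.0778 in shoot. The shoot values thus varied from copy to copy of an identical unit. Of the 42 C outside the repeat, 12 were reactive in root and 18 in shoot, with medians of 0.110 in root and 0.0757 in shoot. Without the repeat, the mean signal in root was 0.496 percentage points, against 0.672 in shoot, and 34 positions remained reactive in shoot only.

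By segments of 51 nt, the mean signal was higher in shoot in 6 of 7. The widest gap was in positions 124 to 174, with 0.115 for root and 0.788 for shoot (percentage points). The exception was positions 277 to 327, with 1.096 in root and 0.623 in shoot. In that segment 5 positions were reactive in root and 6 in shoot, so the higher root mean reflects larger signals and not more reactive positions. The medians kept the order of the means except at 328 to 378. There the means were 0.348 in root and 0.838 in shoot, and the medians 0.150 in root and 0.0440 in shoot. By its mean, the quietest segment in shoot was 175 to 225 (0.173 in root, 0.218 in shoot). There the untreated percentages were highest, with medians of 0.202% in root and 0.165% in shoot, against 0.0396% in root and 0.0377% in shoot for positions 22 to 72. The part of this raised background in the low signal was not tested. All 3 positions above 1% without DMS lay between 209 and 244. C229 is the clearest of them, with 2.27% with DMS and 2.297% untreated in root, against 2.21% with DMS and 2.34% untreated in shoot.

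**Figure D3:**
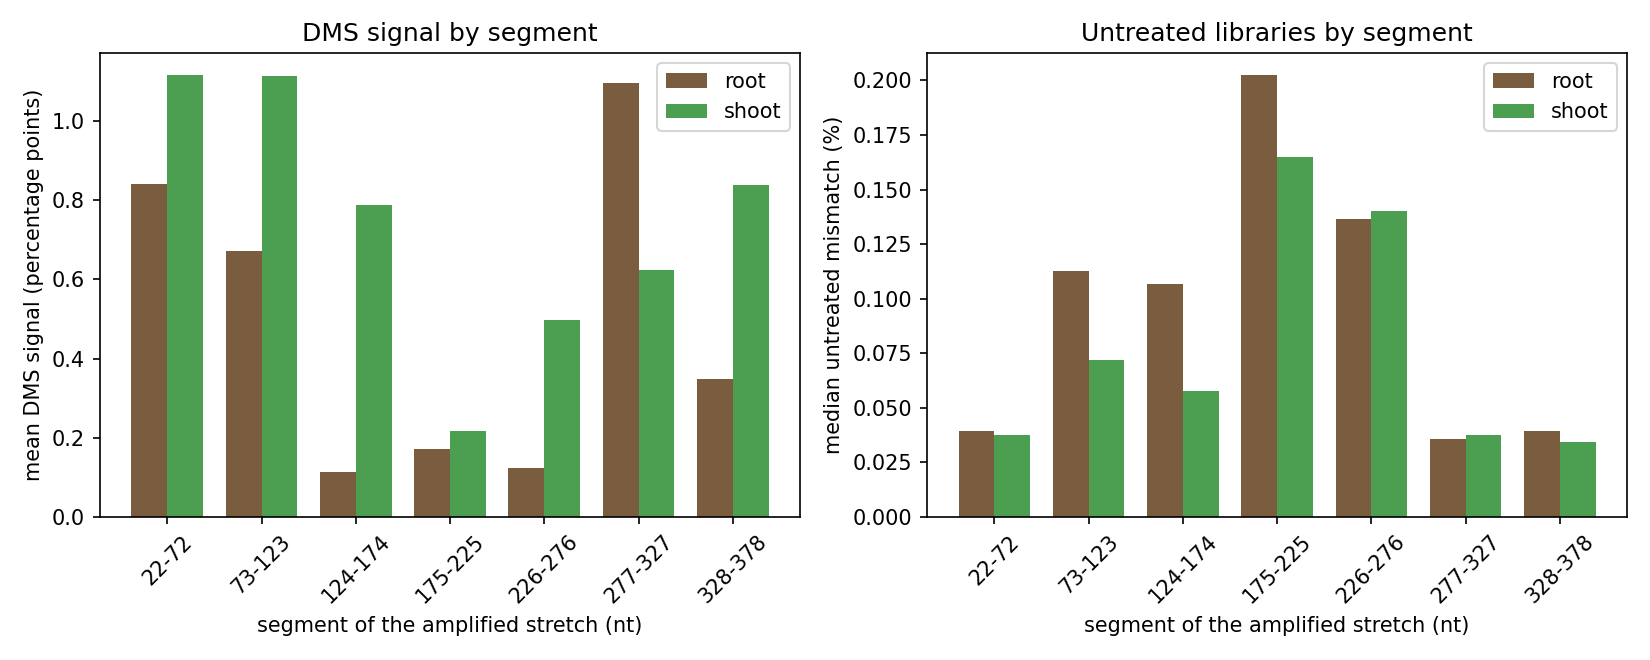
Left, mean DMS signal (percentage points) of the A and C positions in 7 segments of 51 nt, root beside shoot. Right, median untreated mismatch percentage in the same segments; root exceeds shoot on the left only at 277 to 327, and both tissues have their highest untreated median at 175 to 225.

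Sequence context was then compared. Of the 5 largest root signals, 3 sat on C followed by G (C306, C42 and C60), 1 on C followed by A (C40) and 1 on A (A326). Over the 19 such C, the mean signal in root was 1.32 percentage points and in shoot 0.818, the medians were 0.0827 in root and 0.0572 in shoot, and 7 were reactive in root and 8 in shoot. Over the 39 other C, the means were 0.372 in root and 1.04 in shoot, and the medians 0.134 in root and 0.911 in shoot. In root the order of these groups of C thus turned between mean and median. For C followed by U, 4 of 26 were reactive in root and 19 of 26 in shoot, with medians of 0.158 in root and 1.03 in shoot. The TTC repeat supplied 15 of these, of which 2 were reactive in root and 12 in shoot. Of the 11 outside it, 2 were reactive in root and 7 in shoot. For OsNRT2.3a in root the mean over 46 C before G was 1.098 percentage points over 28 C before U 0.949 and over 19 C before A 1.22. For OsNRT2.3b in shoot, where few bases were reactive, the mean was -0.0664 over 35 C before G and 0.00391 over 32 C before U.

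**Figure D4:**
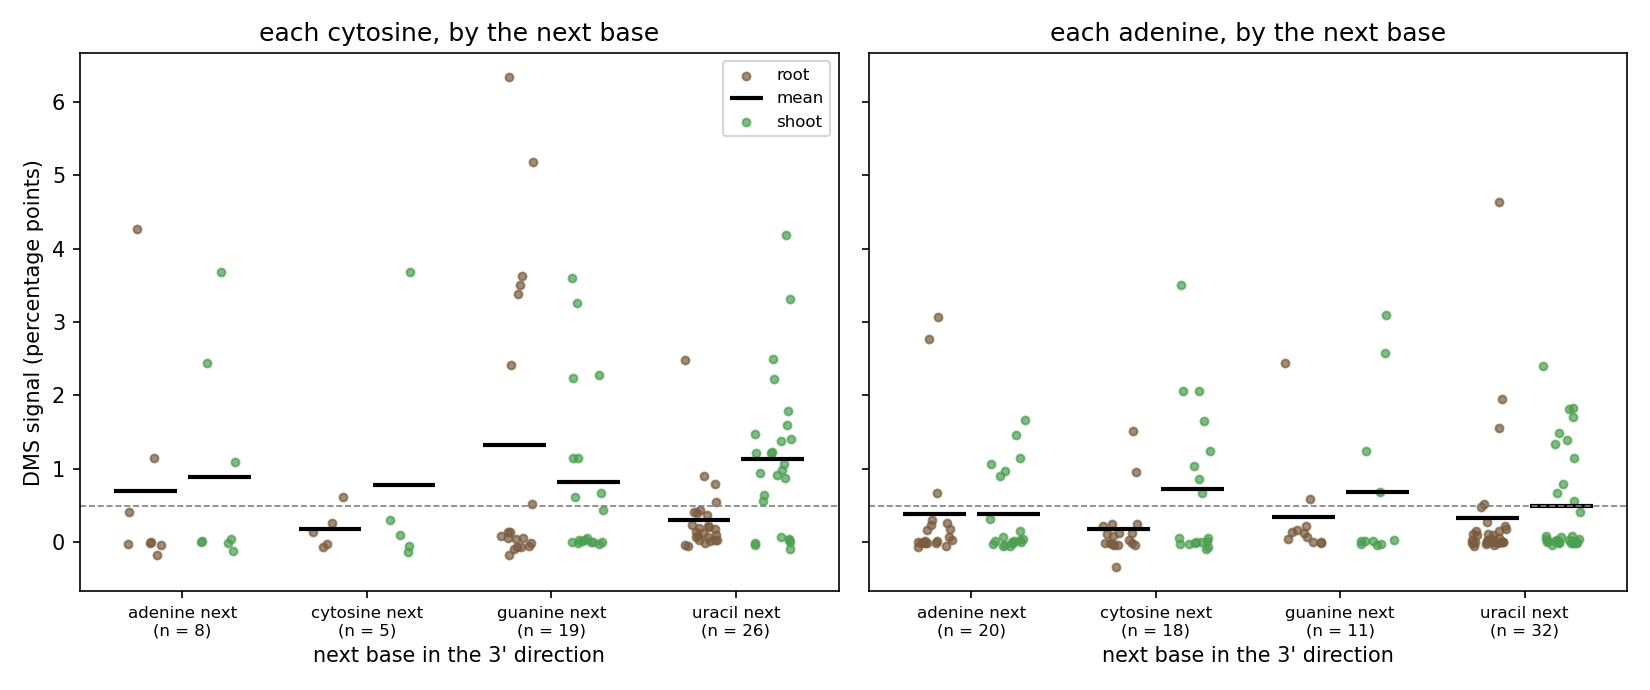
DMS signal (percentage points) of each C (left) and each A (right) of OsNRT1.1B by the base that follows it, root beside shoot, with black bars for means over positions and a dashed line at 0.5. For C, the root mean is highest before G (1.32) and the shoot mean before U (1.14).

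Among the A, those preceded by C differed most between the tissues. None of the 8 was reactive in root, where their largest signal was 0.0397 percentage points, and 6 were reactive in shoot, with a median of 0.796. The group is small. Of the 6, A209 had a high untreated value in shoot (1.68%, against 2.36% with DMS), and A348 and A350 lay close together. Over the 74 A not preceded by C, 11 were reactive in root and 23 in shoot. For A preceded by U, the largest group with 44 members, 6 were reactive in root and 12 in shoot. A in the sequence TTAAT (the first A) was below the limit in both tissues at all 4 copies, with signals from -0.0119 to 0.306 in root and from -0.0297 to 0.0338 in shoot.

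Identical local sequence did not fix the signal. ACG occurred 11 times, and its C had a root signal of at least 2.42 percentage points at C42, C57, C302, C306 and C329 but of at most 0.0636 at C170, C210, C236, C247, C268 and C272. In shoot 4 of the 11 were reactive, namely C57 (2.23), C268 (3.60), C302 (3.26) and C306 (1.14). The extended sequence TACGT occurred 7 times and ranged from -0.174 to 6.33 in root and from -0.0190 to 3.60 in shoot. In root the reactive C before G lay towards the ends of the stretch, with 4 of 5 in positions 22 to 123, 0 of 11 in 124 to 276 and 3 of 3 in 277 to 378. In shoot the counts were 3 of 5, 3 of 11 and 2 of 3. Over all A and C, reactive root positions were also less common in the middle. They numbered 7 of 23 in positions 22 to 72 and 4 of 12 in 73 to 123. Next were 1 of 17 in 124 to 174, 1 of 21 in 175 to 225 and 2 of 25 in 226 to 276. The last parts had 5 of 19 in 277 to 327 and 5 of 23 in 328 to 378. Whether the C before G went beyond this pattern of all bases was not tested.

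Bases directly next to each other also behaved differently in the tissues. There were 51 pairs of adjacent A or C. In root no pair had both bases reactive and 18 had exactly 1, whereas in shoot 14 pairs had both and 15 had exactly 1. From A348 to A352 all 5 bases were reactive in shoot, with signals of 3.50, 2.45, 0.908, 1.46 and 2.58 percentage points, while root had -0.0215, 1.15, -0.00392, 0.234 and 0.585. These counts go with the shares of reactive bases, 17.9% in root and 42.9% in shoot. With the 35 highest positions taken in each tissue, no run of 3 or more was particular to shoot. In 4 pairs a root-only base lay beside a shoot-only base. At A41 and C42 the signals were -0.00453 and 5.18 in root and 1.65 and 0.439 in shoot. At A292 and A293 they were 3.07 and 0.00662 in root and 0.311 and 3.09 in shoot. At C29 and C30 they were 0.614 and 0.00284 in root and 0.305 and 3.68 in shoot. These pairs were chosen by their classes, so the exchange within a pair is a description. Across the 51 pairs, rho between the root signal of a base and the shoot signal of its neighbour was 0.354 on the 5′ side and 0.195 on the 3′ side, against 0.384 and 0.412 for the same bases without the shift. Pearson's r was 0.124 on the 5′ side and 0.122 on the 3′ side, against 0.149 and 0.0537 without the shift. On the 3′ side the order thus turned with the measure.

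The signals were last set against the pairing predicted for the listed stretch alone. Folded at 30°C, the stretch had a minimum free energy of -111.74 kcal/mol. The rank correlation of the signal with the predicted probability of being unpaired was 0.160 in root and 0.135 in shoot over 140 positions, given as a description. Pearson's r was 0.110 in root and 0.208 in shoot, so the order of the tissues turned with the measure. Of the 31 bases with a probability above 0.9, 7 were reactive in root and 16 in shoot, with mean signals of 0.543 in root and 1.104 in shoot and medians of 0.0760 in root and 0.790 in shoot (percentage points). Of the 73 with a probability below 0.1, 10 were reactive in root and 24 in shoot, with means of 0.383 in root and 0.541 in shoot and medians of 0.0327 in root and 0.0440 in shoot. The 5 largest signals of shoot, C64 (1.00), C63 (0.998), C30 (1.00), C268 (0.981) and A348 (0.988), were all on bases predicted to be unpaired. Of the 5 largest of root, C306 (0.976) was predicted to be unpaired and A326 (0.814) lay between the limits of 0.1 and 0.9. C42 (0.00341), C40 (0.0138) and C60 (0.00163) were predicted to be paired. These bases were chosen by their signal, and the difference between the tissues was not tested. Mean probabilities were 0.492 for bases reactive in both tissues, 0.506 for root only, 0.386 for shoot only and 0.271 for neither, and the medians were 0.697, 0.778, 0.175 and 0.0156 in the same order. The prediction holds no proteins and no sequence outside the listed stretch.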

How the data were processed

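The authors removed adapters and bases of quality under 20 with Trimmomatic, cut 2 nt from the 5′ end of reads, kept those longer than 200 bp and aligned them with TopHat to the japonica reference (build and versions not given in the sources used here). Mismatches close to an insertion or deletion (within 3 nt) were dropped, and the deposited value is a fraction, mismatches over depth. Depth is not listed and was not inferred, so no interval is given. No molecular identifiers were described, so reads need not stand for separate molecules.

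Here fractions were turned into percentages and untreated values subtracted. Means over positions are unweighted. A reactive base had a signal of at least 0.5 percentage points, a run at least 3 neighbouring A and C of one class, and segments were 51 nt. With 1 library per condition no test was made. Named are the 5 largest signals and differences in each direction, the runs, and bases that rose by 0.5 in one tissue and fell in the other. Other bases named were chosen after their values were seen. The positions, limits and lists were chosen with earlier results of these data known. Sequences are those listed beside the values. Pairing was predicted with ViennaRNA 2.7.2. The scripts used scipy 1.17.1, pandas 2.3.3, numpy 2.4.6 and matplotlib 3.10.9 under Python 3.11.15 and were tested on simulated data. Libraries of OsNRT2.3a and OsNRT2.3b served only for the share of reactive bases and the C contexts.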

Additional observations from a re-analysis of the deposited data

Results flagged for a closer look

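At 12 positions of OsNRT1.1B the signal rose by at least 0.5 percentage points in one tissue and fell in the other, 4 with the rise in root and 8 with the rise in shoot. The 4 were among 11 root-only positions and the 8 among 46 shoot-only positions. Over all 140 positions the signal was below 0 at 37 in root and at 29 in shoot, so small falls were common. With a single pair of libraries per tissue the difference was not tested. With the rise in root, the root minus shoot difference was 0.521 percentage points at A70, 0.873 at C109, 2.82 at A215 and 1.55 at A271. With the rise in shoot it was -1.66 at A41, -0.699 at C206, -1.01 at A209, -1.02 at C244, -3.66 at C268, -0.803 at A297, -3.52 at A348 and -0.912 at A350. Only the fall at A209 in root (-0.332) was larger than the largest difference between the untreated libraries (0.168), and the other 11 falls were smaller than it. A209 is also among the positions with the highest untreated percentage, with 1.83% in untreated root and 1.68% in untreated shoot.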

How the results depend on the processing

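No paired analysis was possible because no condition was read in more than 1 library. A signal is taken as moved beyond 0.00990 percentage points, the difference of the untreated means, and a count or correlation beyond 1.5 times. Of 65 alternatives 33 stayed within these limits, 31 moved and 1 reversed, and the cause was not tested. Leaving out the TTC repeat and folding at 28°C were chosen after seeing the data. The unknown depth and number of molecules limit every value.

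Root minus shoot turned to 0.00707 percentage points as the difference of the median signals, while the median of the per-position differences was -0.0291. The difference of the means was -0.311 when each tissue lost its own 5% highest treated positions, so the means were not over the same positions. At A it was -0.232, at C -0.286 and without the repeat -0.176. The root mean was 0.0793 as a median, 0.309 at A, 0.682 at C, 0.625 when nothing was subtracted, 0.477 without positions above 1% untreated, 0.255 without the 5% highest and 0.496 without the repeat. The shoot mean was 0.0723 as a median, 0.541 at A, 0.968 at C, 0.869 when nothing was subtracted, 0.566 without the 5% highest and 0.672 without the repeat.

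Positions reactive in both tissues numbered 26 with a limit of 0.25 percentage points, 8 with a limit of 1 and 48 with the 2-fold rule. Those in root only numbered 21 with the 2-fold rule and 21 when the 35 highest positions of each tissue were taken. Those in shoot only numbered 23 with the 2-fold rule and, as the construction forces, 21 with the 35 highest. Scaled to the mean of each tissue they were 13 in both, 13 in root only and 39 in shoot only. Runs in shoot only numbered 3 with a limit of 0.25, 2 with a limit of 1, 0 with the 35 highest and 12 when 2 positions made a run. Runs in root only stayed at 0 under all 6 alternatives tried. Root-only positions were few, 11 of 140 in the main setting, so this 0 does not show a difference in clustering between the tissues. The root and shoot correlation was 0.0629 without the 5% highest of either tissue, and 0.385 by Spearman's rho.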
